A study of Mus musculus with 9 samples.

Results

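The neutrophil primary granule program is followed here through 8 genes chosen by name: Mpo, Elane, Prtn3 and Ctsg, which encode granule enzymes, Ms4a3, a membrane protein gene of the progenitors that make them, and the regulators Cebpa, Cebpe and Gfi1. They are 8 of 36315 genes or regions named on the array, and all 8 had a probe. No member passed the test of a difference between the groups, where at most 0.169% of 23027 genes passed in any comparison. With so few passing, 0 of 8 does not set the members apart. The groups overlapped for all 8, while 15.4% to 23.2% of all genes did not overlap, depending on the comparison. The 8 genes varied together from array to array within the groups.

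RNA was measured in LSK cells of mouse bone marrow, which are sorted as negative for lineage markers and positive for Sca1 and cKit. The Drosha-deleted group came from Drosha fl/fl Gt(ROSA)26Sor CreERT2 mice, the Dicer-deleted group from Dicer fl/fl Gt(ROSA)26Sor CreERT2 mice, and the controls from Gt(ROSA)26Sor CreERT2 mice, with 3 arrays in each group. All mice were female, and the labels give no age. Every group, controls included, thus carried the tamoxifen-dependent Cre at the Rosa26 locus, which is active in most tissues and is not limited to blood cells, and every culture received 250 nM 4OH-tamoxifen. After sorting, 50000 cells per well were cultured for 72 h in 10% serum with stem cell factor (50 ng/mL), IL-6 (10 ng/mL) and IL-3 (10 ng/mL). Nothing in the labels ties the repeats to different animals, so a p-value here reflects the spread among these arrays alone, which may be technical. Precision is limited by having 3 arrays per group.

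Primary (azurophil) granules are the first granules that a developing neutrophil makes, at the promyelocyte stage, and their genes are switched on in granulocyte-monocyte progenitors. Transcription of these genes depends on PU.1, C/EBP factors, Myb and Runx1, and it is shut off as the cell goes on to make its later granules. Drosha and Dicer act one after the other in the making of most microRNAs, and the comparisons ask whether losing either enzyme changed this program in cultured progenitors.

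The deposited series values used below are on a log2 scale, on which a difference of 1 is a 2-fold change in signal. Values compare 1 probe between arrays and not different probes with each other. Each member is represented by its probe with the highest mean. Mpo had a second probe, and all 9 probes of the members lay well above background on all 9 arrays and were saturated on none, so all 8 members passed the filter on dim probes.

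The probe of Prtn3 and the second one of Mpo are printed to show what was measured for an enzyme gene. In each of them 2 reading frames held a stop codon, as in the probes of Ctsg, Cebpa and Cebpe. Which probes lie in coding sequence was not tested. The Prtn3 probe aligned over chr10:79343869-79344685 (mm9, plus strand), a span of 817 bases for a probe of 60, so that it crosses an exon junction. The second Mpo probe lies at chr11:87615121-87615180 (mm9, plus strand). No base is capitalised in them.
Prtn3 probe: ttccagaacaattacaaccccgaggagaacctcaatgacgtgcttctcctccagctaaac
Mpo second probe: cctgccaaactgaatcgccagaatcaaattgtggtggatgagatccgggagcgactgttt

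The other probes lay on mm9 at chr11:87617840-87617899 for Mpo, chr10:79350902-79350961 for Elane, chr7:35906517-35906576 for Cebpa, all on the plus strand. On the minus strand they lay at chr14:56718795-56718854 for Ctsg, chr19:11704055-11704114 for Ms4a3, chr14:55329200-55329259 for Cebpe and chr5:108145719-108145778 for Gfi1.

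The 150 bases upstream of the start sites of 3 protease genes are shown (RefSeq, GRCm38.p6). Elane and Prtn3 are neighbours, with start sites 6645 bases apart on chromosome 10 of that build. Capitals mark the letters GAGGAA, the core of a PU.1 (ETS) site, and AACNG, the core of a Myb site, read on either strand.
Elane, chr10:79886162-79886311, plus strand: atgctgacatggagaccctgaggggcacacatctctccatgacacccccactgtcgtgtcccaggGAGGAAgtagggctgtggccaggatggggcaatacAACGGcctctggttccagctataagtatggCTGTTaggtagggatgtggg
Prtn3, chr10:79879517-79879666, plus strand: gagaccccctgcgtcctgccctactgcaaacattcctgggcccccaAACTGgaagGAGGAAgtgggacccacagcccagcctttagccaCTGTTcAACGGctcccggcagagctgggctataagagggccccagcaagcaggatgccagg
Ctsg, chr14:56102575-56102724, minus strand: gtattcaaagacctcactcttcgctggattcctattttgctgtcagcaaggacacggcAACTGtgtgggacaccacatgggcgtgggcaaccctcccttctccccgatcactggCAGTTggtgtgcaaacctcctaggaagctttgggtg

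GAGGAA stood 85 to 80 bases upstream of the Elane start and 95 to 90 bases upstream of the Prtn3 start, and none of the other 5 members with a promoter entry held it within 150 bases. Over 32851 mouse promoters of the same length, 14.5% held it. AACNG was found in 5 of the 7 members with an entry (Elane, Prtn3, Ctsg, Cebpa and Gfi1) and in 55.1% of all promoters. The C/EBP letters TTNNGNAA were found for Ms4a3 and Gfi1 and in 22.7% of all promoters, and the RUNX letters TGTGGT for Ctsg and in 8.4%. Both strands were searched and overlaps between motifs were allowed. Mpo, which is not printed, held none of these motifs within 150 bases. Within 250 bases, 4 of the 7 members held GAGGAA, 6 AACNG, 2 TTNNGNAA and 1 TGTGGT. The shares of all promoters were then 23.3%, 74.2%, 36.8% and 14.0%. A match describes letters in these windows only, and whether it bears on the members' levels was not tested.

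The labels were first set against the targeted genes. Drosha read 8.81, 8.92 and 9.32 in Drosha-deleted cells, against 11.85 to 12.04 in controls (log2 difference -2.91, limma adjusted p = 0.000152). Dicer1 read 8.99, 9.18 and 8.97 in Dicer-deleted cells, against 9.92, 10.50 and 10.44 in controls, below every other array, but the difference did not pass the test (log2 difference -1.24, limma adjusted p = 0.118). The sources used here do not give the deleted exons, so whether these probes lie in them is not known. Kit, Ly6a (Sca1) and Cd34 spanned 11.90 to 13.06, 10.11 to 12.27 and 14.65 to 15.49 over the 9 arrays, and all 9 stem and progenitor markers listed were measured. These values were read after 72 h of culture with no other cell type beside them, so they do not test the LSK label.

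Some libraries stood apart before any comparison. The scanner software marked 18.9% of spots on control replicate 2 as non-uniform and no more than 0.0472% on any of the other 8 arrays, and its file correlated with its own series column at 0.935, where the other 8 reached at least 0.992. The series columns of control replicates 2 and 3 correlated at 0.994 with each other over the genes tested but at 0.973 to 0.982 with the other 7 arrays, which correlated at 0.988 to 0.996 among themselves. Control replicate 1 was one of those 7. Control replicate 3 was the only array on its slide, per the scanner files. Each comparison of the members with the controls is therefore also given without control replicate 1, without control replicate 2 and with control replicate 1 as the only control. The other genes named are given against all 3 controls only.

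**Figure D1:**
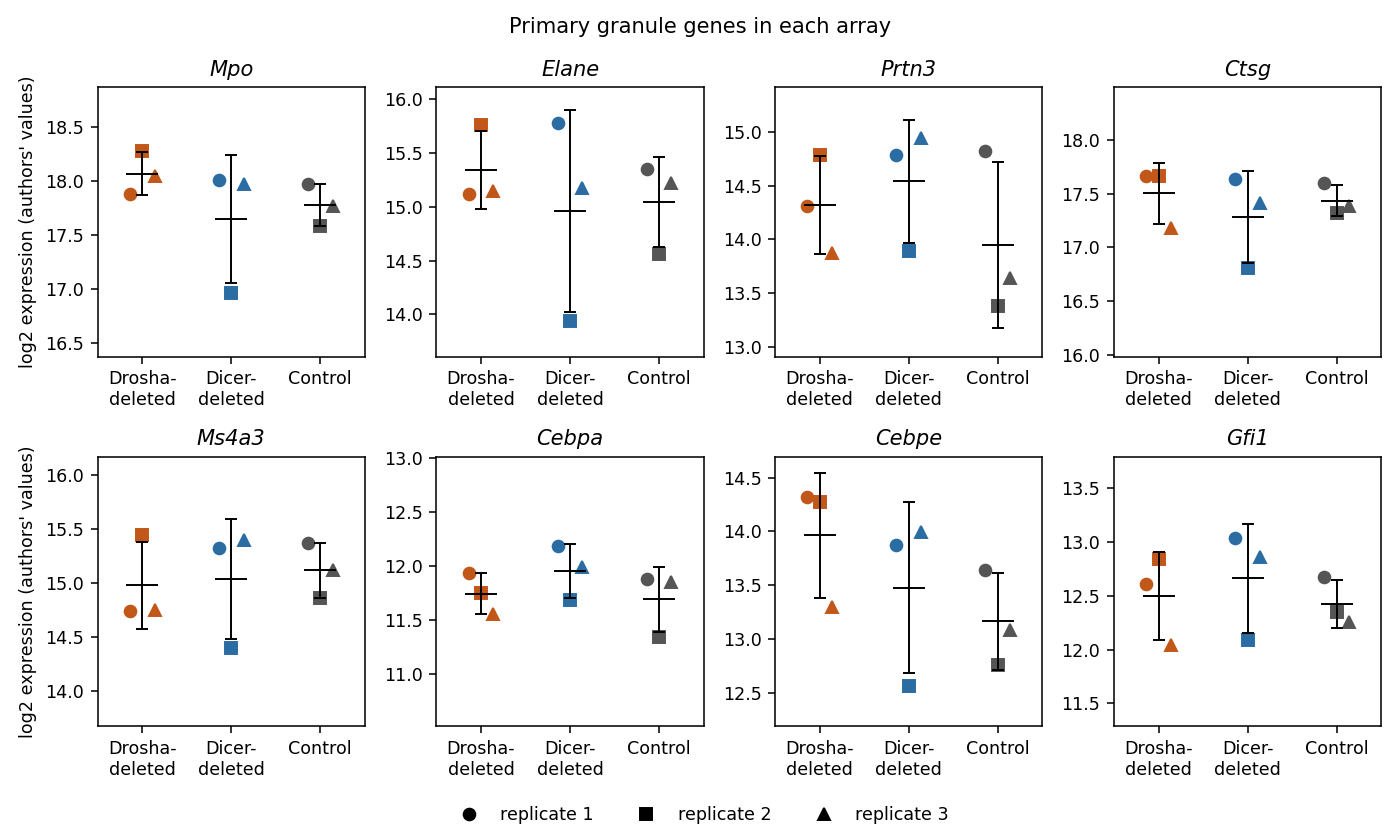
Log2 expression of each primary granule gene in every array (authors' values, vertical axis in log2 units, with all panels drawn over the same span), with Drosha-deleted, Dicer-deleted and control cells from left to right. Points are arrays shaped by replicate number, and lines with bars are the mean and SD of 3 arrays; the groups overlap in all 8 genes, and Dicer-deleted replicate 2 is the lowest array for 5 of them.

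Mpo encodes myeloperoxidase, the heme enzyme that makes hypochlorous acid. It read 17.88, 18.28 and 18.05 in Drosha-deleted cells, 18.01, 16.96 and 17.97 in Dicer-deleted cells, and 17.97, 17.59 and 17.77 in controls. The groups overlapped, and Dicer-deleted replicate 2 alone fell below 17. The log2 difference was 0.29 (SE 0.27) in Drosha-deleted cells and -0.13 (SE 0.27) in Dicer-deleted cells, each less control, with limma adjusted p of 0.4998 and 0.791. The second Mpo probe read 15.92, 16.61 and 15.56 in Drosha-deleted cells, 16.27, 14.88 and 16.11 in Dicer-deleted cells, and 16.10, 14.87 and 14.99 in controls. On it the differences were 0.71 and 0.43 (limma adjusted p = 0.331 and 0.579), so the probes disagreed in sign for Dicer-deleted cells, and control replicate 2 was the lowest array by a narrow margin.

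Elane encodes neutrophil elastase, the serine protease whose human mutations cause cyclic and severe congenital neutropenia. It read 15.11, 15.75 and 15.15 in Drosha-deleted cells, 15.78, 13.94 and 15.17 in Dicer-deleted cells, and 15.35, 14.56 and 15.22 in controls. Its highest and its lowest array were both Dicer-deleted, 1.84 log2 units apart. Group means lay 0.29 (SE 0.43) above control in Drosha-deleted cells and -0.08 (SE 0.43) from control in Dicer-deleted cells, with limma adjusted p of 0.676 and 0.925.

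Prtn3 encodes proteinase 3, an elastase-like protease. It read 14.31, 14.78 and 13.87 in Drosha-deleted cells, 14.79, 13.89 and 14.94 in Dicer-deleted cells, and 14.82, 13.38 and 13.64 in controls. Control replicates 2 and 3 were its lowest arrays, while control replicate 1 lay beside the highest. The difference of 0.59 for Dicer-deleted against control was the largest of any member in that comparison, with a 95% interval of -0.36 to 1.54 and a limma adjusted p of 0.408. For Drosha-deleted against control it was 0.37 (SE 0.42, limma adjusted p = 0.579).

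Ctsg encodes cathepsin G, a protease that cuts after bulky hydrophobic residues. It read 17.66, 17.66 and 17.18 in Drosha-deleted cells, 17.64, 16.81 and 17.41 in Dicer-deleted cells, and 17.60, 17.32 and 17.39 in controls. Its 9 values spanned 0.86 log2 units, with Dicer-deleted replicate 2 lowest. The differences from control were 0.07 in Drosha-deleted cells and -0.15 in Dicer-deleted cells (SE 0.23 each, limma adjusted p = 0.868 and 0.707).

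Ms4a3 encodes a membrane-spanning protein found in granulocyte-monocyte progenitors and their early descendants in mice. It read 14.73, 15.44 and 14.75 in Drosha-deleted cells, 15.32, 14.40 and 15.40 in Dicer-deleted cells, and 15.37, 14.86 and 15.12 in controls. The lowest array was again Dicer-deleted replicate 2, and the other Dicer-deleted arrays lay among the highest. It was the only member whose Drosha-deleted mean lay below control, by a log2 difference of -0.14 (SE 0.30, limma adjusted p = 0.784), and in Dicer-deleted cells the difference was -0.08 (SE 0.30, limma adjusted p = 0.894).

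Cebpa, the transcription factor without which granulocyte-monocyte progenitors do not form, read 11.94, 11.74 and 11.55 in Drosha-deleted cells, 12.18, 11.68 and 11.99 in Dicer-deleted cells, and 11.88, 11.34 and 11.85 in controls. It was the least variable member, and the groups overlapped. The differences from control were 0.05 in Drosha-deleted cells and 0.26 in Dicer-deleted cells (SE 0.19 each), with a 95% interval of -0.18 to 0.70 for the second (limma adjusted p = 0.874 and 0.426).

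Cebpe drives the later steps of granulocyte maturation. It read 14.32, 14.28 and 13.30 in Drosha-deleted cells, 13.88, 12.57 and 14.00 in Dicer-deleted cells, and 13.65, 12.76 and 13.09 in controls. Drosha-deleted replicates 1 and 2 were the highest of the 9 arrays, but replicate 3 of that group lay below control replicate 1. The difference of 0.80 for Drosha-deleted against control (1.74-fold) was the largest of any member, with a 95% interval of -0.17 to 1.76 and a limma adjusted p of 0.252. In Dicer-deleted cells it was 0.31 (SE 0.43, limma adjusted p = 0.673).

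Gfi1, a zinc finger repressor needed for neutrophil development, read 12.61, 12.84 and 12.04 in Drosha-deleted cells, 13.04, 12.09 and 12.86 in Dicer-deleted cells, and 12.67, 12.35 and 12.25 in controls. Its lowest array was Drosha-deleted replicate 3, just under Dicer-deleted replicate 2. The differences from control were 0.07 in Drosha-deleted cells and 0.24 in Dicer-deleted cells (SE 0.28 each, limma adjusted p = 0.887 and 0.626).

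For Drosha-deleted against control, none of the 8 members passed limma's test at an adjusted p of 0.05, and none had an unadjusted p below that value. Over 23027 genes tested 39 passed (0.169%), and 26.9% had an unadjusted p below 0.05. The 3 arrays of each group did not overlap for 0 of 8 members, against 23.2% of all genes. The members' differences ran from -0.14 to 0.80 with a median of 0.18, where the median over all genes was -0.0021, and 7 of 8 were positive. The lowest bound of a member's 95% interval was -0.81 (Ms4a3) and the highest 1.76 (Cebpe), and the widest interval was that of Elane, from -0.68 to 1.27.

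For Dicer-deleted against control, 0 of 8 members passed limma's test, and again none had an unadjusted p below 0.05. Of all genes 4 passed (0.0174%) and 21.9% had an unadjusted p below 0.05. The groups overlapped for every member, while they did not overlap for 21.6% of all genes. The members' differences ran from -0.15 to 0.59 with a median of 0.08, and 4 of 8 were positive. Both deletions are compared with the same 3 controls, so the 2 sets of differences are not independent.

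For Drosha-deleted against Dicer-deleted, 0 of 8 members passed limma's test (0.0565% of all genes did, 13 in number), and none had an unadjusted p below 0.05, against 5.65% of all genes. Of all genes, 15.4% did not overlap between these groups, and 0 of 8 members did so. The differences ran from -0.22 for Prtn3 to 0.48 for Cebpe with a median of 0.08, and all 8 had a limma adjusted p of 0.999. Mpo was 0.42 higher (95% interval -0.19 to 1.03), Elane 0.38 higher and Ctsg 0.22 higher in Drosha-deleted cells, none of them past the test. The F test for any difference among the 3 groups called 21 genes (0.0912%) and 0 of 8 members.

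**Figure D2:**
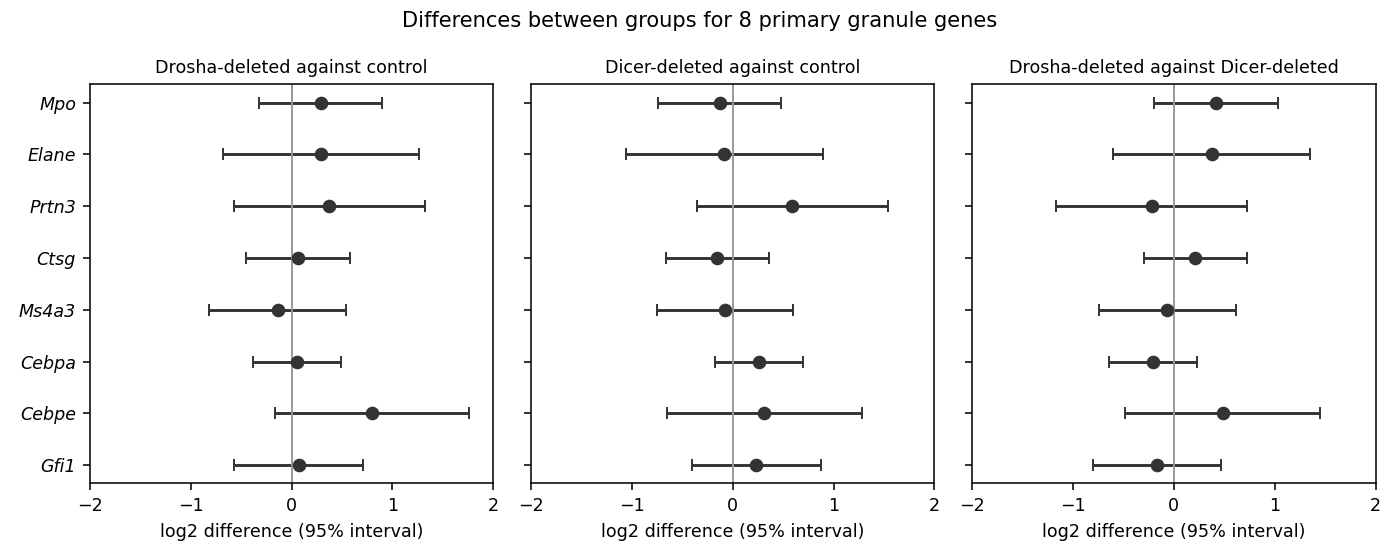
Differences in log2 units (horizontal axis) for the 8 genes in each comparison, the first-named group less the other. Points are limma estimates and bars are 95% intervals; every interval includes 0, and the widest are those of Elane, Cebpe and Prtn3.

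The sign of these differences depended on which controls were used. With control replicate 1 as the only control, 2 of 8 members (Mpo and Cebpe) were positive in Drosha-deleted cells and 1 of 8 (Cebpa) in Dicer-deleted cells, with medians of -0.12 and -0.30. That fit assumes that the lone control varies like the other groups, and the members had a limma adjusted p of 0.999 in the Drosha-deleted and 0.9997 in the Dicer-deleted comparison. Without control replicate 1, 7 and 6 of 8 members were positive and the medians were 0.29 and 0.21. In that fit 33.6% of all genes passed in the Drosha-deleted and 30.5% in the Dicer-deleted comparison with controls, and still 0 of 8 members passed in either. Prtn3 came nearest there, with a difference of 1.03 in Dicer-deleted cells (limma adjusted p = 0.060) and 0.81 in Drosha-deleted cells (limma adjusted p = 0.112), and Cebpe followed with 1.04 in Drosha-deleted cells (limma adjusted p = 0.123). Without control replicate 2, 6 of 8 members were positive in Drosha-deleted and 4 of 8 in Dicer-deleted cells, with medians of 0.04 and -0.06. Again 0 of 8 members passed in either comparison. The values for Drosha-deleted against control then fell to 0.05 for Elane, 0.09 for Prtn3 and 0.60 for Cebpe, and 0.0261% of all genes passed. In Dicer-deleted cells they were then -0.32, 0.31 and 0.11 for these genes, and 0.00434% of all genes passed. Without control replicate 3, which leaves the arrays of a single slide, 6 and 5 of 8 members were positive, with medians of 0.18 for the Drosha-deleted and 0.08 for the Dicer-deleted group and a lowest limma adjusted p of 0.489.

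Leaving out Dicer-deleted replicate 2 turned the sign of 4 members (Mpo, Elane, Ctsg and Ms4a3). Without it, all 8 members were positive against control, from 0.09 for Ctsg to 0.92 for Prtn3, with 0.21 for Mpo, 0.43 for Elane and 0.77 for Cebpe. None passed the test then (lowest limma adjusted p = 0.388). Against Drosha-deleted cells, 6 of 8 members were then higher in the Dicer-deleted group, among them Prtn3 by a log2 difference of -0.54 and Ms4a3 by -0.38, where the sign is Drosha-deleted less Dicer-deleted.

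**Figure D3:**
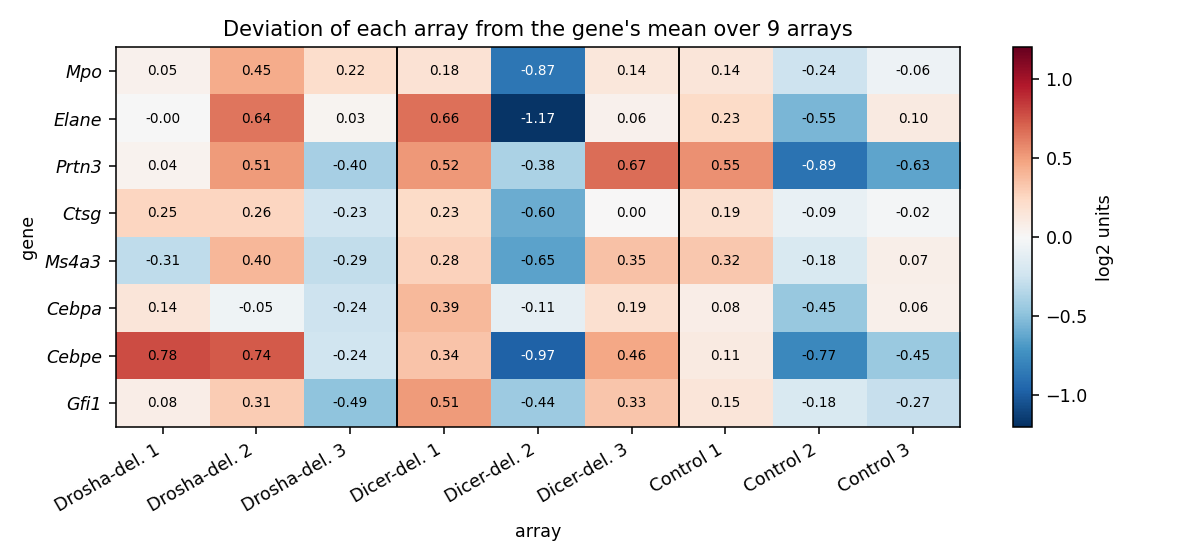
Deviation of each array (columns, grouped as Drosha-deleted, Dicer-deleted and control) from each gene's mean over the 9 arrays (rows), in log2 units, with red above and blue below the mean. Dicer-deleted replicate 2 and control replicate 2 are below the mean in all 8 genes, and the deepest value is -1.17 for Elane.

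The members varied more within groups than most genes did. The within-group SD was 0.63 log2 units for Elane, 0.62 for Cebpe and 0.61 for Prtn3, each larger than in over 96% of the genes tested, where the median gene had 0.23. It was 0.42 for Ms4a3, 0.40 for Gfi1, 0.38 for Mpo, 0.31 for Ctsg and 0.25 for Cebpa, the last larger than in 57.3% of genes. For Elane, Prtn3, Ms4a3, Ctsg and Gfi1 this SD exceeded the largest difference between any 2 group means, and for Mpo, Cebpa and Cebpe it did not.

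The variation ran in the same direction across members. Dicer-deleted replicate 2 lay below the mean of all 8 members, by a median of -0.62, and was the lowest of the 9 arrays for Mpo, Elane, Ctsg, Ms4a3 and Cebpe. Elane was 2.26-fold below its mean there. Control replicate 2 was also below the mean in all 8, by a median of -0.35, and was lowest for Prtn3 and Cebpa. Drosha-deleted replicate 2 (median 0.42) and Dicer-deleted replicate 1 (median 0.36) were each the highest array for 3 members. Each member correlated with the mean of the other 7 at r = 0.66 for Cebpa to 0.87 for Elane over the 9 arrays. These correlations are a description over 9 arrays that share groups and normalization. In the scanner signals of all 9 arrays, control replicate 2 was lowest for 8 of 8 members and Dicer-deleted replicate 2 for 0. Without control replicate 2 in those signals, Dicer-deleted replicate 2 was lowest for 5 of 8.

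The other genes of the pathway were taken from 6 lists with 66 genes, of which 62 were measured, and none passed limma's test in any of the 3 comparisons (lowest adjusted p = 0.0935). Of the 62, 8 (12.9%) had an unadjusted p below 0.05 in Drosha-deleted cells less control, 6 (9.68%) in Dicer-deleted cells less control and 3 (4.84%) between the deletions. Over all genes these shares were 26.9%, 21.9% and 5.65%, each above that of the lists. Up to 3 genes per list with the smallest unadjusted p are named below.

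Of the other primary granule contents, 11 of 12 were measured. Cst7, encoding cystatin F, an inhibitor of the cathepsin that activates granule proteases, read 14.60, 14.88 and 14.45 in Drosha-deleted cells, against 13.92, 13.60 and 13.95 in controls (log2 difference 0.82, limma adjusted p = 0.113). All 3 Drosha-deleted arrays lay above all controls. Over all genes, 23.2% did not overlap between these groups in either direction. Cd63, a tetraspanin of the granule membrane, differed by -0.56 in Dicer-deleted cells from controls (limma adjusted p = 0.165). It read 16.43, 16.06 and 16.28 in Dicer-deleted cells, against 16.51, 16.89 and 17.04 in controls, with control replicate 1 nearest the Dicer-deleted arrays.

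Among protease inhibitors and sorting factors, all 8 listed genes were measured. Ap3d1, a subunit of the AP-3 adaptor that sorts cargo to granules, differed by 0.52 between Drosha-deleted cells and controls (limma adjusted p = 0.142). It read 12.75, 12.74 and 12.51 in Drosha-deleted cells, against 12.63, 11.95 and 11.88 in controls. Jagn1 and G6pc3, whose loss causes congenital neutropenia in humans, differed by 0.22 and -0.22 in Dicer-deleted cells from controls (limma adjusted p = 0.323 and 0.362).

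Of 12 other granulocyte regulators, 11 were measured. Trib1, a pseudokinase that drives the degradation of C/EBP-alpha, averaged 7.47 ± 0.41 in Drosha-deleted cells and 8.12 ± 0.34 in controls (SD, n = 3 each, log2 difference -0.65, limma adjusted p = 0.1397). Its relative Trib2 differed by 0.68 between Drosha-deleted and Dicer-deleted cells (limma adjusted p = 0.887), and Cebpg by 0.41 between Dicer-deleted cells and controls (limma adjusted p = 0.235). Cebpg read 10.48, 10.28 and 10.51 in Dicer-deleted cells, against 10.42, 9.76 and 9.87 in controls.

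All 7 regulators of the monocyte side were measured, and all 7 differences of Dicer-deleted cells from controls were negative, with a median of -0.48 and none past the test. Against the same controls, 1 of 7 was positive in Drosha-deleted cells, with a median of -0.30 and none past the test. The list's median deviation from the 9-array means was -0.79 in Dicer-deleted replicate 2, but -0.01 and 0.12 in replicates 1 and 3 of that group. It was -0.16, 0.19 and -0.24 in Drosha-deleted cells and 0.20, 0.23 and 0.55 in controls. Egr2, a zinc finger factor of macrophage development, read 8.38, 7.31 and 8.70 in Dicer-deleted cells, against 8.90, 9.01 and 9.36 in controls (log2 difference -0.96, limma adjusted p = 0.179). Zeb2, another zinc finger factor, differed by -0.48 in Dicer-deleted cells from controls (limma adjusted p = 0.179).

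Of the genes for early granulocyte surface and cytosol proteins, 9 of 10 were measured. Plac8 read 15.42, 15.74 and 15.75 in Drosha-deleted cells, against 16.44, 16.37 and 16.38 in controls. The groups did not overlap, as for 23.2% of all genes, and its log2 difference of -0.76 had the lowest adjusted p of the 6 lists (limma adjusted p = 0.0935). Hk3, a hexokinase of myeloid cells, differed by 1.10 between Drosha-deleted cells and controls (limma adjusted p = 0.166), and Clec5a by -0.47 between Dicer-deleted cells and controls (limma adjusted p = 0.200). Hk3 read 14.18, 13.95 and 12.86 in Drosha-deleted cells, against 13.51, 12.27 and 11.91 in controls.

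Of the genes for later granules and maturation, 16 of 17 were measured. Chil3, a chitinase-like protein gene, read 17.15, 17.60 and 15.72 in Drosha-deleted cells, against 15.50, 13.81 and 15.93 in Dicer-deleted cells (log2 difference 1.75, limma adjusted p = 0.740). Mmp8, the neutrophil collagenase, read 10.05, 9.85 and 9.14 in Drosha-deleted cells, against 11.93, 10.23 and 11.67 in controls (-1.59, limma adjusted p = 0.181). Ncf1, a subunit of the NADPH oxidase, differed by 0.47 between Drosha-deleted cells and controls (limma adjusted p = 0.263). It read 13.38, 13.42 and 12.70 in Drosha-deleted cells, against 13.12, 12.55 and 12.41 in controls, so control replicate 1 lay within the Drosha-deleted range.

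Several lists of myeloid genes were low in Dicer-deleted replicate 2 along with the members, and other lists, myeloid ones among them, were not. The median deviation of its genes from their means was -1.31 for the 16 late granule genes, -0.46 for the 11 other primary granule contents, -1.40 for 8 eosinophil markers, -0.85 for 10 monocyte and macrophage markers, -0.77 for 9 dendritic cell markers and -0.75 for 9 mast cell and basophil markers. It was -0.79 for the monocyte-side regulators and -0.41 for the early granulocyte genes. It was -0.01 for the granulocyte regulators and 0.02 for the protease inhibitors and sorting factors. It was -0.22 for 4 B cell markers, -0.21 for 7 megakaryocyte markers and 0.10 for 6 erythroid markers. For 3 T and NK cell markers it was 0.23, for the 9 stem and progenitor markers 0.13 and over all genes 0.03. Of these lists, the eosinophil one had 4 of 8 markers well above background on all 9 arrays and the B cell one 1 of 4. In control replicate 2, the other array below the mean in all 8 members, the median was -0.55 for the late granule genes, -0.12 for the other primary granule contents and -0.38 for the mast cell and basophil markers. There it was 0.05 for the eosinophil, 0.07 for the monocyte and macrophage, 0.15 for the dendritic cell, 0.50 for the megakaryocyte, 0.10 for the erythroid, 0.10 for the B cell, -0.86 for the T and NK cell and 0.26 for the stem and progenitor markers. It was 0.23 for the monocyte-side regulators, -0.14 for the early granulocyte genes and 0.05 each for granulocyte regulators and for inhibitors and sorting factors. Drosha-deleted replicate 3, which was the lowest array for Gfi1, had a median of 0.65 for the stem and progenitor markers and -0.76 for the mast cell and basophil markers.

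The summed linear signal of the members was 514707 to 683627 in Drosha-deleted cells, 308511 to 620737 in Dicer-deleted cells and 439326 to 592286 in controls. In each such sum the probes with the highest signal weigh most, here those of Mpo and Ctsg. The sums serve only to compare arrays for the same list. Of the 8 eosinophil markers, all measured, 4 lay well above background on all 9 arrays. The sum over all 8 was 8909 to 13634 in Drosha-deleted cells, 3173 to 11620 in Dicer-deleted cells and 6175 to 11882 in controls. For the mast cell and basophil markers (9 of 9) it was 57545 to 121757, 59622 to 104912 and 58189 to 104939 in these groups. The monocyte and macrophage markers (10 of 10) summed to 17252 to 23156 in Drosha-deleted cells, 15691 to 33375 in Dicer-deleted cells and 26384 to 38650 in controls. For the stem and progenitor markers (9 of 9) the sum was 55562 to 94480 in Drosha-deleted cells, 64841 to 79728 in Dicer-deleted cells and 67298 to 82104 in controls. Every lineage list held at least 1 marker well above background on all 9 arrays. However, only 4 of 8 B cell markers and 3 of 7 T and NK cell markers passed the filter. Of those 4 B cell markers, just 1 lay well above background on all 9 arrays. The part of other cell types in the members' levels was not tested, and in such bulk samples fewer cells of a type and less RNA per cell cannot be told apart.

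**Figure D4:**
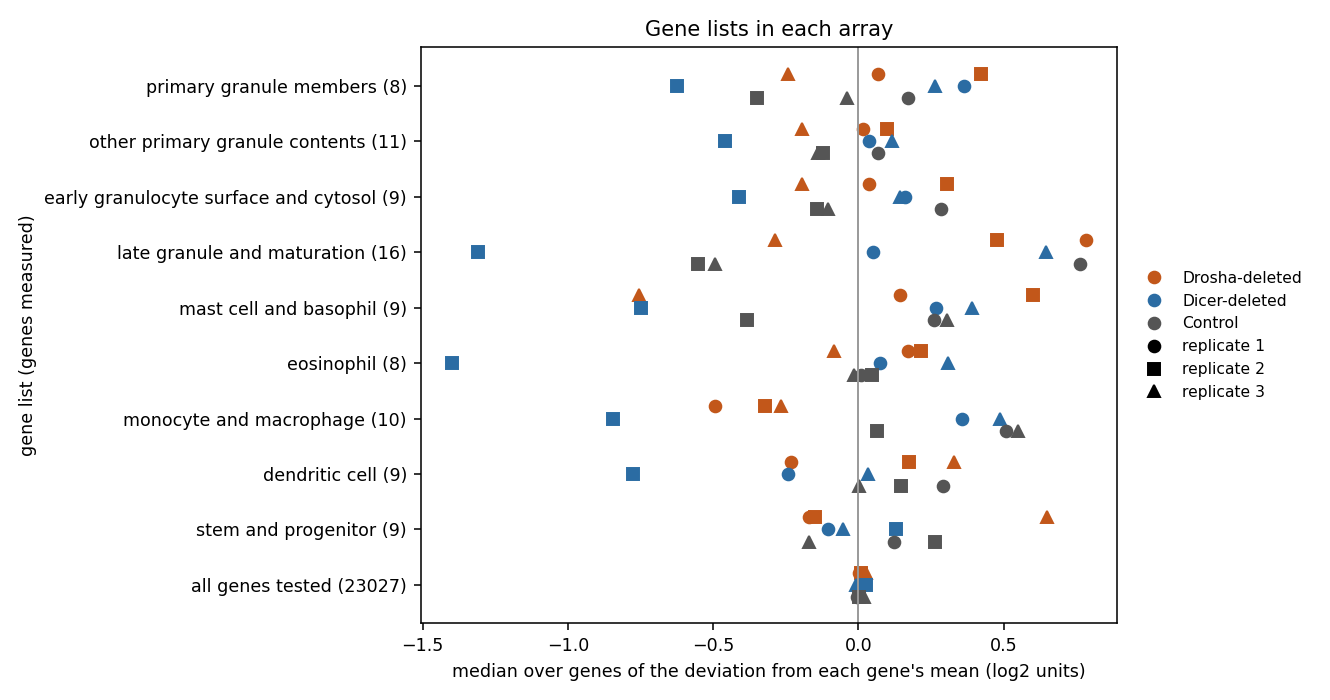
Median over the genes of each list (rows, with the number measured) of the deviation of an array from each gene's mean over the 9 arrays, in log2 units. Colours are groups and shapes are replicate numbers. Dicer-deleted replicate 2 is the lowest array for the members and for the other primary granule, early granulocyte, late granule, eosinophil, monocyte and macrophage, and dendritic cell lists. It lies at 0.13 for stem and progenitor markers.

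The genes whose values followed the mean of the members most closely over the 9 arrays, out of 1344 genes with an SD of at least 0.5 log2 units, were Mgst2 and Ly6a2 (r = 0.967 each), Rhou (0.964), Sqor (0.959) and Wfdc21 (0.944). Hgfac (0.937), Mogat2 (0.929), Ngp (0.929), Hsd11b1 (0.925) and Epx (0.921) came next. Ngp encodes neutrophilic granule protein and Epx eosinophil peroxidase. Ngp read 14.97, 15.05 and 13.60 in Drosha-deleted cells, 14.53, 12.82 and 15.03 in Dicer-deleted cells, and 14.87, 12.75 and 13.32 in controls, low in the same 2 arrays as the members. Without Dicer-deleted replicate 2 the r of Mgst2 was 0.943, that of Ngp 0.919 and that of Epx 0.865. The least alike were Tdrd5 (r = -0.894), Xkr6 (-0.879), Adgrl4 and Scml4 (-0.863 each) and Slco3a1 (-0.839). These r values rank genes over arrays of the same 3 groups and carry no test.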

How the data were processed

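The deposited series values, which are on a log2 scale and not centred, were used for all levels and tests. Their columns had nearly equal medians (6.30 to 6.32), the submitters' processing notes name limma, while the background step is not given in the sources used here, nor which array lies behind a column. The deposited scanner files hold Cy3 intensity per spot, 1 colour per array, per the file headers, and served for probe flags and as an alternative. Of 62976 spots per array 3671 were controls and were left out. Probes were kept when all arrays of 1 or more groups showed them well above background (31490 of 55681 probes). The kept probe with the highest mean stood for a gene, which gave 23027 genes. Tests used limma (version 3.58.1, R version 4.3.3), with 1 mean per group over 9 arrays, two-sided moderated tests and Benjamini-Hochberg adjustment over all genes at 0.05. The fit was tested on simulated data. Each other list was represented by members with an adjusted p below 0.05 or else by the 3 with the smallest p, not all of which are reported here; of the marker lists, Kit, Ly6a and Cd14 are named outside the rule, which takes the 2 with the highest mean. The members and lists were chosen with earlier results of these data known. Alternatives took scanner values, normexp with an offset of 50, no filter, probe means, replicate number or slide as a block, other scaling and each array left out; a second Mpo probe and control replicate 1 as the only control were added after the data were seen. Replicate numbers did not pair the samples.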

Additional observations from a re-analysis of the deposited data

How the results depend on the processing

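No member passed the test under any of 19 alternatives (456 values for 24 member differences, lowest limma adjusted p = 0.060), but 18 of the 24 differences changed sign under at least 1 of them. Slide as a block is the same fit as leaving out control replicate 3, the only array on its slide, so these 2 alternatives are not separate checks. The number of genes passing for Drosha-deleted against control was 39, and it was 13 with scanner values less the 75th percentile, 10 with these without control replicate 2, 1 with normexp, 25 with no filter, 4 with the replicate block and 13 with slide as a block. For Dicer-deleted against control it was 4, and 0 with normexp (2037 at an unadjusted p below 0.05), 2 with no filter, 0 with the replicate block (4537 unadjusted) and 21 with control replicate 1 as the only control. For Drosha-deleted against Dicer-deleted it was 13, and 3 with scanner values, 5 without control replicate 2 in these, 2 with normexp, 5 with the replicate block and 7 with slide as a block. The F test gave 21, and 13, 10, 1, 3 and 12 in the same order, with 33 for the mean of a gene's probes. The cause of these changes was not tested. Leaving out 1 array gave 4 to 7747 genes for Drosha-deleted against control, 0 to 7028 for Dicer-deleted against control, 4 to 16 between the deletions and 6 to 6876 for the F test, the highest of each without control replicate 1. For Drosha-deleted against control the count was 4, 6 and 60 without Drosha-deleted replicates 1, 2 and 3, 16 without Dicer-deleted replicate 1 or 2, 6 without control replicate 2 and 13 without control replicate 3. For Dicer-deleted against control it was 2 without Drosha-deleted replicate 1 or 2, 8 without Drosha-deleted replicate 3, 1 without control replicate 2, and 0 by limma without Dicer-deleted replicate 1, 2 or 3 (3524, 2942 and 3734 at an unadjusted p below 0.05). Scanner values with control replicate 2 moved the median of all genes by 0.28 and 0.29 against the controls, and all 8 members were then positive for both deletions (medians 0.55 and 0.51). For the pairing check, each gene was taken in each array as its deviation from the mean of its group. These deviations correlated at -0.28 to 0.24 between same-numbered arrays of different groups and at -0.29 to 0.28 between differently numbered ones. With 3 arrays a group, the 95% intervals of members against control reached down to -1.05 and up to 1.76 log2 units.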

Other observations

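Among the lineage markers with the highest means, Cd4 read 12.63, 12.59 and 12.53 in Drosha-deleted cells, 12.47, 12.49 and 12.69 in Dicer-deleted cells, and 12.24, 10.43 and 10.702 in controls, so that control replicates 2 and 3 lay apart from the other 7 arrays (12.24 to 12.69). Meis1, a stem cell transcription factor, read 11.86, 13.57 and 14.39 in Drosha-deleted cells, 13.81, 13.85 and 13.69 in Dicer-deleted cells, and 13.84, 14.25 and 14.19 in controls, with Drosha-deleted replicate 1 far below the other 8 arrays (13.57 to 14.39). Cd14, a monocyte receptor for lipopolysaccharide, was the only gene of all pathway and marker lists that passed limma's test, and it fell in Drosha-deleted cells. It read 9.71, 9.57 and 9.18 in Drosha-deleted cells, against 10.63, 10.83 and 10.77 in controls (log2 difference -1.26, limma adjusted p = 0.030). In that comparison 39 of 23027 genes passed (0.169%), and the groups did not overlap for 23.2% of all genes, as for Cd14. No alternative fit is given for Cd14.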
